A study of Mus musculus with 6 samples.

Results

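Genes of the lysosome were examined in macrophages grown from mouse bone marrow cells. The set held 41 of the 55487 genes in the deposited count table. These were lysosomal hydrolases other than cathepsins, proteins that help them, lysosomal membrane proteins, MiT/TFE transcription factors and subunits of the V-ATPase. They were chosen by symbol, from a list of named lysosomal genes, and all 41 were found and passed the filter on low counts. The lowest count of any of them in any library was 161.

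Both groups started from cells sorted out of mouse bone marrow and were cultured with CSF-1 over 7 days. CSF-1 is the cytokine on which macrophages depend for survival. They were then scraped off, and RNA libraries were made by a SMART-seq v2 protocol and sequenced as read pairs. One group came from the cells that the labels call TpMos and the other from mature Ly6Chi monocytes, with 3 libraries in each. CSF-1 was present in both groups at a concentration not given in the sources used here, as are the mouse strain, sex and age, and no other treatment is named. Nothing in the labels says whether the 3 libraries of a group came from separate cultures or animals, so a p-value here reflects only how much these libraries varied, which may be technical.

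The libraries held 23765773 to 33042094 counts. The 10 macrophage markers examined were all present, with summed levels of 35619 to 38240 CPM (counts scaled to library size) in TpMo-derived and 29124 to 32200 CPM in Ly6Chi-derived libraries. Of the 10 markers each of neutrophils, of T and NK cells and of red cells and platelets, and of the 8 of mast cells and basophils, 0 reached 5 CPM in any library. Bst2 of the dendritic cell list, Ighm of the B cell list and Kdr of the list of fibroblasts and endothelial cells did reach it, while Flt3, Col1a1 and Lepr, named after their values were seen, had no count. The summed dendritic cell list was at 113 to 161 CPM in TpMo-derived against 37.1 to 44.5 CPM in Ly6Chi-derived libraries, that of fibroblasts and endothelial cells at 29.2 to 33.6 against 7.5 to 24.2 CPM, and that of B cells at 7.28 to 14.1 against 1.78 to 7.99 CPM. The first 2 sums did not overlap between the groups and the third did. They were led by Bst2, Kdr and, in TpMo-derived libraries, Ighm, and their part in the results was not tested. In such bulk samples fewer cells of a type and less RNA per cell cannot be told apart.

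Lysosomes are acidic organelles in which macrophages break down what they have taken up. The V-ATPase pumps protons into them: its V1 sector, in the cytosol, splits ATP, and its V0 sector, in the membrane, conducts the protons. Soluble hydrolases then cut sugars, sulfate groups, lipids and proteins at low pH, and inherited loss of many of them causes a lysosomal storage disease. TFEB, TFE3 and MITF are related transcription factors that bind E-boxes, among them the CLEAR element found near the starts of many lysosomal genes, and mTORC1 at the lysosome surface controls whether they enter the nucleus.

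The E-box CACGTG, a palindrome that reads the same on both strands, was looked for in RefSeq promoter windows of 250 bases before to 50 bases after each annotated start (GRCm38.p6). A window was found for 34 of the 41 genes, and not for Npc1, Asah1, Galns, Atp6v1b2, Atp6v1c1, Atp6v1g1 and Atp6v1h. Of the 34, 11 held an E-box in at least 1 window, or 32.4%, against 8.09% of the 27025 genes with a window and 12.1% of the 9347 genes that both had a window and were tested for expression. Counted by window, 11 of the 44 member windows (25%) and 7.15% of all windows held one. The 11 genes also held the E-box with a T before it or an A after it (TCACGTG or CACGTGA, which overlap the E-box). So did 4.29% of all genes with a window and 7.21% of those tested. The longer CLEAR consensus, allowing up to 2 mismatches, was present in 15 of the 34 (44.1%). It was present in 11.4% of all genes with a window and 15.45% of those tested. The CLEAR element, which contains the E-box, is known from lysosomal genes, and the members were chosen as such genes. Higher shares among them are thus no independent result.

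The stretches that hold these E-boxes are shown for 6 genes whose levels are described later, written 5′ to 3′ on the strand of the gene, in lower case with each E-box in capitals. All lie before the RefSeq start of their window. By the gene spans of the deposited table, those of Lgmn, Atp6v1a and Cln3 lie inside the gene, as does part of that of Mcoln1. Those of Glb1 and Lamp1 lie before the gene. They are at chr12:102439121-102439156 for Lgmn (minus strand), chr9:114401015-114401050 for Glb1 (plus strand), chr16:44139370-44139405 for Atp6v1a (minus strand), chr8:13159085-13159160 for Lamp1 (plus strand), chr8:3500433-3500494 for Mcoln1 (plus strand) and chr7:126583337-126583400 for Cln3 (minus strand).
Lgmn: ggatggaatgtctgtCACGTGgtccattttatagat
Glb1: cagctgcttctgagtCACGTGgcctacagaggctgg
Atp6v1a: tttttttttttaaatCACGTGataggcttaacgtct
Lamp1: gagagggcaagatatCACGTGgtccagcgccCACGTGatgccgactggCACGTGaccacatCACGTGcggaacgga
Mcoln1: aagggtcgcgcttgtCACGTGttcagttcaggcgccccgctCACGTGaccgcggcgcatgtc
Cln3: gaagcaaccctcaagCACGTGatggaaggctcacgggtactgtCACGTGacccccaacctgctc

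The Lamp1 window held 4 E-boxes in a row, between 61 and 15 bases before the start, more than any other member's. Mcoln1, Cln3, Gla and Atp6v0b held 2 each. The second E-box of Cln3 lies in a full match to the CLEAR consensus, which 100 of the 27025 genes with a window had. Over the 11 genes there were 18 E-boxes, of which 12 began within 75 bases before the start. The E-box of Lgmn lay in 1 of its 2 windows, as did those of Cln3. No window of Tfeb, Tfe3 or Mitf held an E-box, nor did those of Psap, Grn, Gm2a and Npc2. These matches describe letters in the windows and were not measured as binding.

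**Figure D1:**
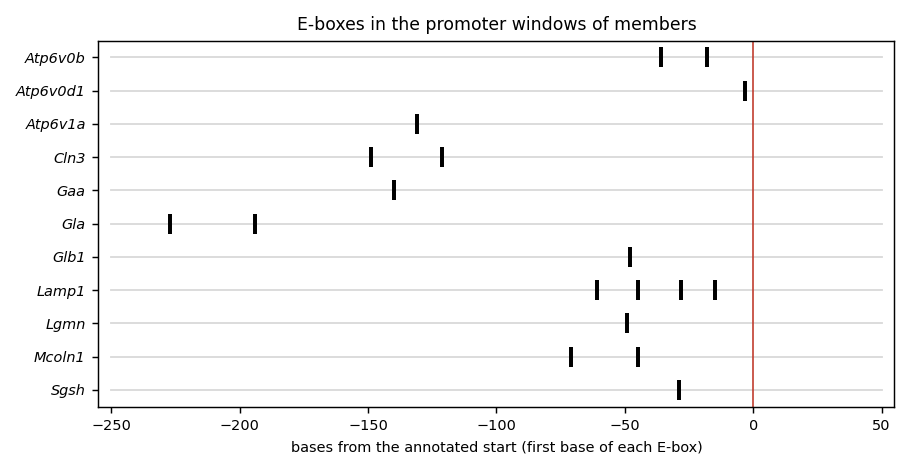
Position of each E-box (black ticks) along the promoter windows of the 11 members that hold one, in bases from the annotated start (red line), with grey lines for the windows. Lamp1 has 4 E-boxes and the 2 of Gla lie farthest from the start, at 227 and 194 bases before it.

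Most genes of the set were abundant in both groups. Per length, in TPM (counts over exon length, scaled to the same sum in each library), their mean levels ran from 9.66 for Arsb to 13843 for Psap, with a median of 259.7 TPM. TPM leaves out the scaling of library totals (TMM) used for CPM, so ratios between the groups on these scales differ by more than length. In 29 of 41 the level lay within the top 10% of the genes tested. Psap, the precursor of the saposins that help enzymes reach their lipids, alone made up 39.9 to 44.4% of the summed TPM of the set. After it came Grn at 2206, Hexa at 2200, Lamp1 at 1527, Lgmn at 1464 and Atp6ap1 at 1201 TPM, the only others above 1000 TPM. Low levels were found for the sulfatases Arsb at 9.66 TPM and Ids at 13.6 TPM and the transcription factor Tfeb at 11.7 TPM, whose order is uncertain because part of the exons of Arsb overlaps another gene. The summed level of the whole set was 32248 ± 1664 TPM (SD, n = 3) in TpMo-derived and 33321 ± 813 TPM in Ly6Chi-derived macrophages, a ratio of 0.968, which is within the spread between libraries.

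Between the groups most of these genes differed little, and more of those that changed were lower in TpMo-derived macrophages. With the edgeR quasi-likelihood test and p-values adjusted over all 13140 genes tested, 14 of the 41 passed an adjusted p of 0.05, 5 higher and 9 lower in TpMo-derived macrophages. Over all genes tested 12.3% passed, 6.54% higher and 5.79% lower. Abundance moves with that share: among the 1870 genes averaging 100 CPM or more, 32.2% passed, 380 higher and 223 lower, and among the 35 members at that level 40.0% passed, the same 5 higher and 9 lower. The groups did not overlap for 23 members, 16 of them lower, or 56.1%, against 30.5% of all genes tested and 52.1% of those with at least 100 CPM. The median log2 fold change of the set was -0.16, against 0.01 over all genes tested and 0.04 over those with at least 100 CPM. Of the 14 changes 13 were below 1.5-fold. The exception was Lgmn. With library totals alone in place of scaling, which moves the median of all genes to -0.04, 14 members passed, 3 higher and 11 lower. Of these 12 were the same genes, while Atp6v1b2 and Atp6v1h no longer passed and Galns and Atp6ap2 passed as lower.

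**Figure D2:**
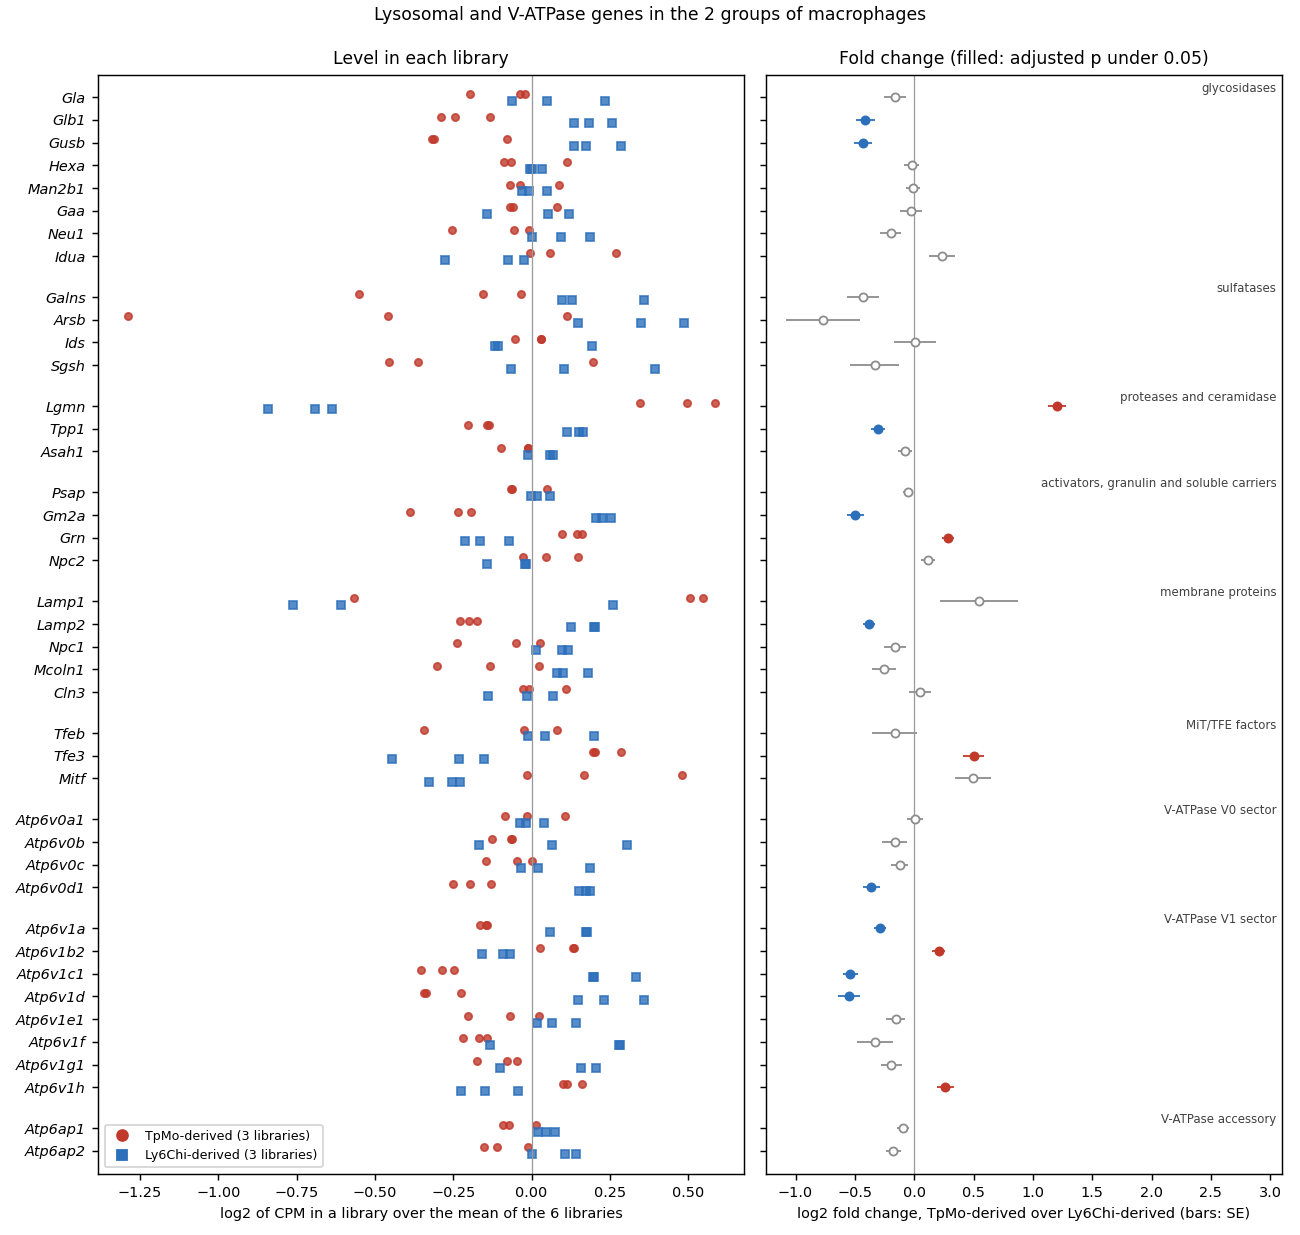
Left, log2 of each library's CPM over the mean of the 6 libraries, for the 41 members in their classes (circles TpMo-derived, squares Ly6Chi-derived). Right, log2 fold change with its SE, where positive is higher in TpMo-derived macrophages and filled points passed an adjusted p of 0.05 (red higher, blue lower). Lgmn stands apart at 1.2, and Lamp1 spreads widely within both groups.

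Lgmn rose most. It encodes legumain, a cysteine protease that cuts after asparagine and also processes cathepsins. Its locus is ENSMUSG00000021190.14 on chromosome 12, 102394084 to 102439813 on the minus strand of GRCm38. Lgmn stood at 1519, 1287 and 1430.4 CPM in the TpMo-derived libraries and at 651, 566 and 627 CPM in the Ly6Chi-derived libraries. All 3 TpMo-derived libraries were above all 3 Ly6Chi-derived ones. The log2 fold change was 1.2 ± 0.08 (SE), or 2.30-fold (edgeR adjusted p = 1.3e-05). The other protease of the set, the tripeptidyl peptidase Tpp1, lost in a childhood neuronal ceroid lipofuscinosis, went the other way. Tpp1 stood at 457, 455 and 436 CPM against 543, 563 and 558 CPM, again without overlap (log2 fold change -0.30 ± 0.06, edgeR adjusted p = 0.00632). Asah1, the acid ceramidase, stood at 598 ± 20.6 CPM (SD, n = 3) against 631 ± 18.6 CPM and did not pass.

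Of the 8 glycosidases, which remove sugars from glycans and glycolipids, Gusb and Glb1 fell and the other 6 did not pass. Thus 25% passed, against 12.3% of all genes tested and 32.2% of those averaging at least 100 CPM. Gusb, the β-glucuronidase, stood at 920.2, 1084 and 923 CPM in TpMo-derived against 1258, 1294 and 1398 CPM in Ly6Chi-derived libraries (log2 fold change -0.43 ± 0.07 SE, edgeR adjusted p = 0.00429). Glb1, the β-galactosidase, stood at 144, 133 and 129 CPM against 179, 188 and 173 CPM (-0.41 ± 0.08, edgeR adjusted p = 0.00845). For both genes the groups did not overlap. A stretch of 165 exon bases of Glb1, or 5.49% of its exons, is shared with Tmppe on the same strand, so its level is uncertain there. Other exons overlap genes on the opposite strand, which the counting did not tell apart: 32.3% of the exon bases of Arsb (Gm26527), 21.6% of Sgsh (Card14), 12.8% of Hexa (Tmem202), 11.8% of Atp6v0b (Gm12841) and 7.65% of Cln3 (Apobr). The levels of these genes are uncertain to that extent.

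The abundant Hexa, the α subunit of β-hexosaminidase lost in Tay-Sachs disease, stood at 1287 ± 100.3 CPM (SD, n = 3) against 1306 ± 18.0 CPM, and its log2 fold change was -0.02 ± 0.06 (SE). Man2b1, the α-mannosidase, and Gaa, the α-glucosidase that degrades glycogen, had log2 fold changes of -0.01 ± 0.06 and -0.03 ± 0.09. These values did not pass and lie near 0. Gla, the α-galactosidase lost in Fabry disease, and the sialidase Neu1 had -0.16 ± 0.09 and -0.20 ± 0.09. Idua, which acts on heparan and dermatan sulfate, was the only glycosidase with a positive value, 0.23 ± 0.11, and its groups did not overlap (116 to 141 CPM against 96.4 to 115 CPM), but it did not pass (edgeR adjusted p = 0.216).

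The 4 sulfatases, which remove sulfate from glycosaminoglycans, were the least abundant hydrolases apart from Galns. Of the 4 sulfatases 0 passed, against 12.3% of all genes tested. Galns stood at 84.1, 120.2 and 111 CPM in TpMo-derived against 132, 135 and 158 CPM in Ly6Chi-derived libraries, without overlap (log2 fold change -0.43 ± 0.14 SE, edgeR adjusted p = 0.0698). It passed under 7 of 14 other settings, with adjusted p from 0.0136 to 0.291. Arsb stood at 12.4, 18.5 and 6.99 CPM against 23.9, 21.7 and 18.9 CPM (-0.77 ± 0.31, edgeR adjusted p = 0.157). TpMo-derived replicate 2 lay just below the lowest Ly6Chi-derived library, and without it Arsb was at -1.14 and passed (edgeR adjusted p = 0.0365). Sgsh and Ids had log2 fold changes of -0.33 ± 0.21 and 0.01 ± 0.18, with overlapping groups.

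Of the soluble helpers, Gm2a fell and Grn rose, whereas Psap and Npc2 did not pass. Gm2a, the activator that lifts GM2 ganglioside out of the membrane for β-hexosaminidase, stood at 276, 268 and 241 CPM in TpMo-derived against 363, 375 and 368 CPM in Ly6Chi-derived libraries (log2 fold change -0.50 ± 0.07 SE, edgeR adjusted p = 0.00138). Grn, the precursor of the granulins and a gene whose loss causes frontotemporal dementia, stood at 2425, 2534 and 2508 CPM against 2156, 1957 and 2024 CPM (0.28 ± 0.05, edgeR adjusted p = 0.00562). Neither gene's groups overlapped. Hexa, whose product works together with the Gm2a protein, did not pass. Psap stood at 11012 ± 505 CPM (SD, n = 3) against 11408 ± 245 CPM. Npc2, which hands cholesterol to NPC1, stood at 1533 ± 94.2 CPM against 1414 ± 68.7 CPM (difference of 0.12 ± 0.06 SE on the log2 scale).

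The 2 major glycoproteins of the lysosomal membrane behaved differently. Lamp2, which also has a role in chaperone-mediated autophagy, stood at 987, 1024 and 1006 CPM in TpMo-derived against 1329.8, 1262 and 1328 CPM in Ly6Chi-derived libraries. The groups lay apart with little spread, and Lamp2 fell (log2 fold change -0.38 ± 0.05 SE, edgeR adjusted p = 9.67e-04). Lamp1 (ENSMUSG00000031447.7, chromosome 8, 13159161 to 13175338) stood at 1770.4, 1718 and 818 CPM in TpMo-derived against 714, 793 and 1449 CPM in Ly6Chi-derived libraries. TpMo-derived replicates 1 and 2 and Ly6Chi-derived replicate 3 were high, the other 3 libraries were low, and the groups overlapped.

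Within each group Lamp1 thus varied about as much as it did between them. Its coefficient of variation was 37.3% in TpMo-derived and 40.9% in Ly6Chi-derived macrophages, where the medians over all members were 5.65% and 5.50%. Among the other members with at least 100 CPM the highest were 17.8% and 16.4%. The log2 fold change of Lamp1 was 0.54 ± 0.33 (SE, edgeR adjusted p = 0.378), and leaving out 1 library at a time moved it from 0.35, without Ly6Chi-derived replicate 1, to 0.93, without Ly6Chi-derived replicate 3, where it did not pass either (edgeR adjusted p = 0.0955). Per length, the ratio of Lamp1 to Lamp2 TPM was 6.40, 5.99 and 2.90 in TpMo-derived and 1.92, 2.24 and 3.90 in Ly6Chi-derived libraries. The exons of Lamp1 overlap Grtp1, on the opposite strand, over 249 bases, and Grtp1 had 852 counts over all 6 libraries against 210755 for Lamp1.

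**Figure D3:**
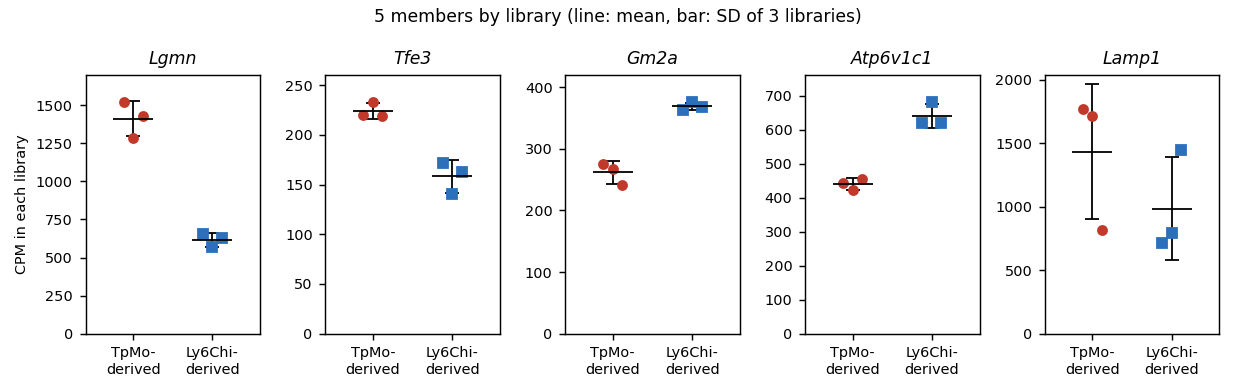
CPM in each library for 5 members (points), with the mean and SD of the 3 libraries of each group. Lgmn and Tfe3 are higher and Gm2a and Atp6v1c1 lower in TpMo-derived macrophages without overlap, whereas the Lamp1 values of the groups interleave.

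The remaining membrane proteins did not pass. Mcoln1, a calcium channel that opens in starvation, stood at 119.9 ± 13.4 CPM (SD, n = 3) against 143 ± 5.17 CPM without overlap (log2 fold change -0.25 ± 0.10 SE, edgeR adjusted p = 0.142). Npc1, the cholesterol exporter, had a log2 fold change of -0.16 ± 0.09, and Cln3, the protein lost in juvenile Batten disease, 0.05 ± 0.09. Because Lamp1 is the most abundant of the 5, the summed level of the class followed it, at 2295 ± 690 TPM against 1928 ± 496 TPM. Without Lamp1 it was 511 ± 5.01 TPM against 658 ± 19.3 TPM, so that the ratio of TpMo-derived to Ly6Chi-derived moved from 1.19 to 0.778.

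Of the MiT/TFE factors, Tfe3 rose, Mitf narrowly missed the threshold and Tfeb did not pass. Tfe3 (ENSMUSG00000000134.17, chromosome X, 7762560 to 7775202) stood at 219.9, 233 and 218 CPM in TpMo-derived against 172, 140.1 and 162.5 CPM in Ly6Chi-derived libraries, without overlap (log2 fold change 0.50 ± 0.09 SE, edgeR adjusted p = 0.00506). Mitf stood at 65.9, 53.0 and 46.7 CPM against 40.3, 37.6 and 39.6 CPM, also without overlap (0.50 ± 0.15, edgeR adjusted p = 0.0594). Mitf passed under 6 of 14 other settings, with adjusted p from 0.0153 to 0.212. Tfeb stood at 18.5 ± 2.75 CPM (SD, n = 3) against 20.8 ± 1.59 CPM (-0.17 ± 0.19).

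Per length, Tfe3 was the most abundant factor of the family in every library, at 76.5 to 84.0 TPM in TpMo-derived libraries and 51.8 to 66.0 TPM in Ly6Chi-derived ones. Mitf followed at 24.5 to 35.5 and 20.8 to 23.2 TPM, and Tfeb lay at 9.11 to 12.3 and 12.2 to 13.5 TPM. Of the summed TPM of the family, including the related Tfec, Tfe3 made up 60.8 to 64.6% in TpMo-derived libraries and 54.0 to 56.5% in Ly6Chi-derived ones. Tfeb made up 6.99 to 9.33% and 10.5 to 12.7%. Transcript levels say nothing of how much of each factor was in the nucleus.

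Of 22 genes listed by role for the control of these factors at the lysosome, 2 rose and 3 fell, with a median log2 fold change of -0.14. That is 22.7%, against 12.3% of all genes tested and 32.2% of those averaging at least 100 CPM. The list includes Tfec, itself of the family, which did not pass. Lamtor1, which anchors the Ragulator complex to the membrane, and Rptor, the subunit that brings mTORC1 there, rose (0.63 and 0.50). Fnip2, a partner of folliculin, and Lamtor3 fell (-0.89 and -0.39). Both directions thus occurred within the Ragulator complex. The fifth gene was Fnip1, named here after its value was seen, at -0.46.

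Of the 14 subunits and accessory proteins of the V-ATPase in the set, 4 fell, 2 rose and 8 did not pass. Thus 42.9% passed, against 12.3% of all genes tested and 32.2% of those averaging at least 100 CPM. The median log2 fold change was -0.17, and 11 of 14 values were negative. The summed level of the 14 was 6108, 6213 and 5962 TPM in TpMo-derived and 6986, 7116 and 6978 TPM in Ly6Chi-derived libraries, a ratio of 0.867. On the CPM scale, with TMM scaling and no correction for length, the sums were 6546, 6676 and 6490 against 7035, 7240 and 7054 CPM, a ratio of 0.924. The scales thus differ in library scaling as well as in length. On both scales each TpMo-derived sum lay below each Ly6Chi-derived one. These sums cover part of the pump, as they leave out other isoforms of the subunits, among them Tcirg1 and Atp6v0d2. Of 10 osteoclast markers 6 reached 5 CPM (Acp5, Atp6v0d2, Ctsk, Itgb3, Mmp9 and Nfatc1) and Calcr was at 0. The sum of the list was 234 to 263 CPM in TpMo-derived libraries and 414 to 521 CPM in Ly6Chi-derived ones, led by Atp6v0d2 in each library. Mmp9 went the other way, at 24.7 to 58.2 CPM in TpMo-derived libraries and 0 to 0.73 CPM in Ly6Chi-derived ones. The part of this list in the V-ATPase result was not tested.

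Of 8 member subunits of the V1 sector, 3 fell and 2 rose, the latter with calls near the threshold. Thus 62.5% passed, against 12.3% of all genes tested and 32.2% of those averaging at least 100 CPM. Atp6v1c1, the subunit that joins V1 to V0 and is released when the pump comes apart, stood at 443, 422 and 455 CPM in TpMo-derived against 618, 680.2 and 620.2 CPM in Ly6Chi-derived libraries (log2 fold change -0.54 ± 0.06 SE, edgeR adjusted p = 4.58e-04). Atp6v1d, part of the central rotor, stood at 109.9, 102 and 101 CPM against 142, 165 and 151 CPM (-0.55 ± 0.09, edgeR adjusted p = 0.00331). Neither overlapped between the groups. Atp6v1a, the subunit that splits ATP, stood at 947, 945 and 933 CPM against 1181, 1179 and 1089 CPM (-0.29 ± 0.05, edgeR adjusted p = 0.00646).

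Its partner in the ATP-splitting ring, Atp6v1b2, went the other way. It stood at 1544, 1548 and 1433 CPM in TpMo-derived against 1341, 1320.4 and 1261 CPM in Ly6Chi-derived libraries (log2 fold change 0.21 ± 0.05 SE, edgeR adjusted p = 0.0323). Atp6v1h, a regulatory subunit of V1, stood at 239.7, 229.9 and 232 CPM against 208, 193 and 184 CPM (0.26 ± 0.07, edgeR adjusted p = 0.0452). The groups overlapped in neither gene, but both calls were near the threshold. That of Atp6v1b2 was lost without any 1 of 5 libraries, all but TpMo-derived replicate 3, and that of Atp6v1h without any 1 of the 6, with edgeR adjusted p of up to 0.148 and 0.170, though both stayed positive. The stalk and shaft subunits Atp6v1e1, Atp6v1f and Atp6v1g1 had log2 fold changes of -0.16, -0.33 and -0.19 and did not pass. Atp6v1f and Atp6v1g1 have processed pseudogenes that match stretches of their transcripts at 95.8 to 99.4% identity, so their levels are uncertain.

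In the V0 sector Atp6v0d1 fell and the other 3 member subunits did not pass. Thus 25% passed, against 12.3% of all genes tested and 32.2% of those averaging at least 100 CPM. Atp6v0d1, which couples the rotor to the membrane ring, stood at 158, 145 and 150.2 CPM in TpMo-derived against 196, 194 and 191 CPM in Ly6Chi-derived libraries (log2 fold change -0.36 ± 0.07 SE, edgeR adjusted p = 0.01). The proteolipids Atp6v0b and Atp6v0c, which build that ring, had -0.16 ± 0.11 and -0.12 ± 0.07, and Atp6v0a1, a proton-conducting subunit, 0.01 ± 0.07. Atp6v0c has a processed pseudogene that is 99.8% identical over 465 bases, and Atp6ap2 a pseudogene copy that is 98.4% identical over 438 bases, so their levels are uncertain. The accessory proteins Atp6ap1 and Atp6ap2, the latter also known as the prorenin receptor, had log2 fold changes of -0.10 ± 0.05 and -0.18 ± 0.06. Their groups did not overlap, and they did not pass.

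Levels per length differed widely among the V1 subunits, from 74.4 TPM for Atp6v1h and 94.95 TPM for Atp6v1d to 874 TPM for Atp6v1g1 and 898 TPM for Atp6v1b2. Several subunits have isoforms from other genes, and for B, E and G the other genes were at or near 0, so that Atp6v1b2 and Atp6v1e1 supplied all and Atp6v1g1 at least 99.2% of their subunit's TPM. For the a subunit, Tcirg1, the a3 isoform of macrophage and osteoclast lysosomes, held the largest share in every library, 65.4 to 71.5% in TpMo-derived libraries and 71.9 to 73.6% in Ly6Chi-derived ones. Atp6v0a1 held 22.3 to 27.2% and 21.99 to 23.3%.

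The d subunit was the one whose main isoform changed place. Atp6v0d1 supplied 61.5 to 69.6% of the TPM of the d subunit in TpMo-derived libraries and 42.7 to 49.6% in Ly6Chi-derived ones, and Atp6v0d2, the isoform of osteoclasts and of fused or activated macrophages, the rest. Atp6v0d2 stood at 158, 169 and 119 TPM against 489, 498 and 369 TPM. Both isoforms fell in TpMo-derived macrophages, Atp6v0d2 by more (log2 fold change -1.54, edgeR adjusted p = 8.7e-05), and the share itself was not tested. Of 13 other V-ATPase isoforms and assembly factors that could be tested, out of 21 listed, Atp6v0d2 fell and the assembly factor Vma21 rose (0.43). These made up 15.4% of the 13, against 12.3% of all genes tested and 32.2% of those averaging at least 100 CPM.

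**Figure D4:**
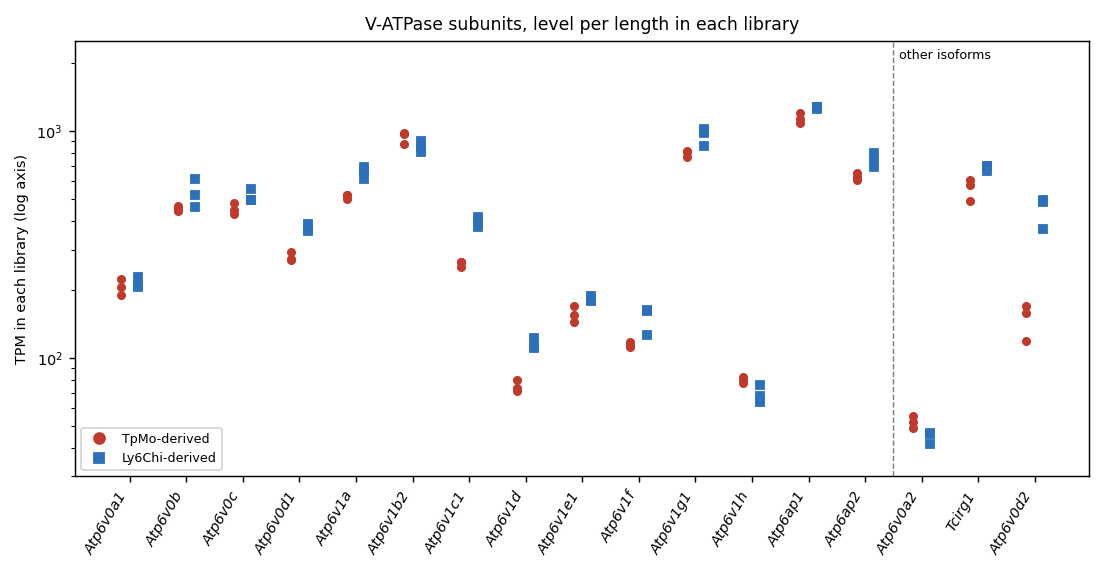
Level per length (TPM, log axis) of the V-ATPase members and of 3 other isoforms, right of the dashed line, in each library (circles TpMo-derived, squares Ly6Chi-derived). The isoform Atp6v0d2 separates the groups most, at 119 to 169 against 369 to 498 TPM.

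Further genes of the lysosome were listed by role, to be read against the 6.54% of all genes tested that rose and the 5.79% that fell, and against 380 and 223 of the 1870 averaging at least 100 CPM. Of 25 other enzymes and activators 2 rose and 3 fell, with a median log2 fold change of -0.13. The 25 include Tpp2, a cytosolic peptidase and not a lysosomal one, which did not pass. The phosphatase Acp2 and the phospholipase Pla2g15 rose (0.61 and 0.45), and the fucosidase Fuca1 was among those that fell (-0.58). Of 23 other membrane proteins and transporters tested, 7 fell and 0 rose, with a median of -0.19. They included the peptide transporter Slc15a3, the amino acid transporter Slc36a1, Ostm1, the partner of a chloride transporter, and Laptm5 (-0.76, -1.57, -0.57 and -0.27).

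Of 18 genes that tag and sort lysosomal enzymes, 3 rose and 1 fell, with a median log2 fold change of -0.01. M6pr, the cation-dependent mannose 6-phosphate receptor, stood at 927 against 729 CPM (0.35), Nagpa, which uncovers the mannose 6-phosphate tag, at 221 against 167 CPM (0.41), and Ap1b1, a subunit of the adaptor AP-1, at 354 against 228 CPM (0.63). Sort1, which encodes the alternative sorting receptor sortilin, fell, at 14.8 against 56.1 CPM (-1.93). Of 24 autophagy genes 1 rose and 5 fell, with a median of -0.24. In both lists the share that passed, 22.2% and 25.0%, lay above the 12.3% of all genes tested and below the 32.2% of those averaging at least 100 CPM. The cargo receptor Sqstm1 rose (0.33), and Tax1bp1, Atg12 and Wipi1 were among those that fell (-0.59, -0.57 and -0.78).

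E-boxes occurred among members of either direction. Of the members with a promoter window, an E-box was present for 1 of the 3 that rose, 3 of the 8 that fell and 7 of the 23 that did not pass. Lgmn was the one that rose, and Glb1, Atp6v1a and Atp6v0d1 those that fell. In the lists of further genes an E-box was present for 6 of 15 sorting genes with a window, 6 of 20 genes listed for control of the factors, 5 of 19 autophagy genes, 3 of 16 other V-ATPase genes, 3 of 17 other enzymes and 3 of 23 other membrane proteins.

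**Figure D5:**
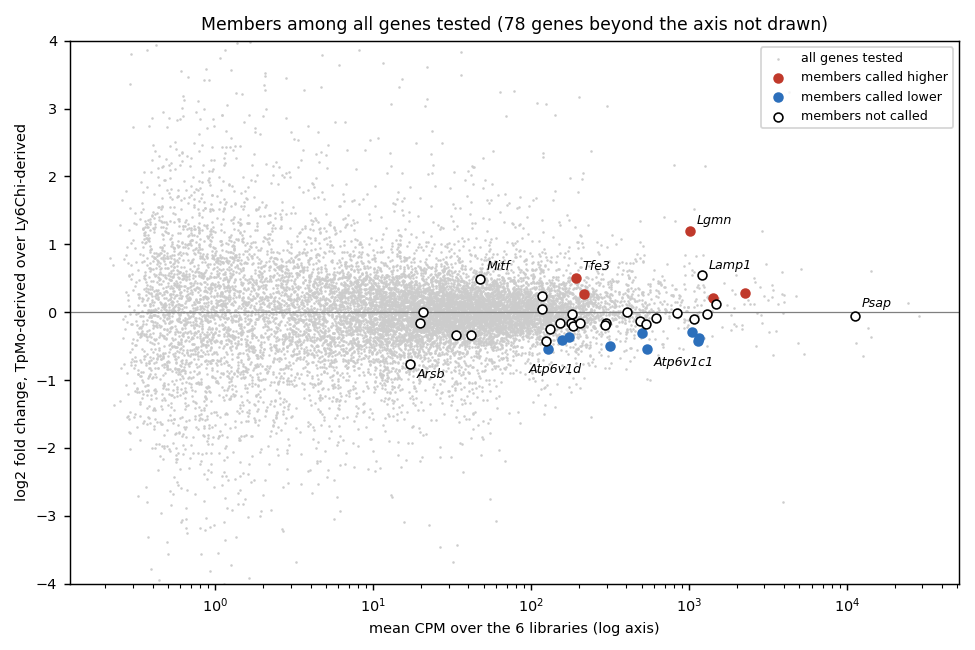
Log2 fold change (positive is higher in TpMo-derived) against mean CPM on a log axis for all genes tested (grey) and the 41 members (large points, filled where they passed). Of the 41 members 35 average at least 100 CPM. Apart from Lgmn at 1.2, the 41 lie between -0.77 (Arsb) and 0.54 (Lamp1).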

How the data were processed

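The authors deposited raw counts of reads per gene for 6 libraries. Per the file headers, featureCounts 1.6.3 counted them over exons of GENCODE M22 with no option for strand, read pairs, multiple mapping or overlapping genes. By that program's defaults strand is ignored, and reads on overlapping or near-identical genes are not counted. Per the submitters' processing notes, STAR and GRCm38 were used, with no version of STAR in the sources used here. Symbols came from GENCODE M21 (55394 of 55487 identifiers matched). Replicates were numbered in accession order.

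Genes passing filterByExpr (minimum count 10, total 15) were tested with edgeR 4.0.16 (TMM, robust quasi-likelihood, no covariate), with Benjamini-Hochberg adjustment over all genes tested. The script was tested on simulated data. SEs were derived from the fold change and F statistic. CPM used TMM totals. TPM used the deposited exon lengths, without TMM scaling. Exon overlaps came from the deposited coordinates, and copies were transcripts of other genes with at least 95% identity over 100 bases (BLAST). Promoter sequences are RefSeq's. Alternatives used DESeq2 1.42.0, limma 3.58.1, other scaling and filters, a correction for GC content and length, and each library left out. A comparison at 100 CPM and the membrane class without Lamp1 were added after seeing the data. Members and lists were chosen with earlier results of these data known. Every member could be named, and of each other list up to 4 changed genes with the smallest p. Isoforms of member subunits were named by family, and Tpp2 because it is not lysosomal.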

Additional observations from a re-analysis of the deposited data

How the results depend on the processing

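Of the 14 members that passed, Lgmn, Gm2a, Tfe3, Atp6v1c1 and Atp6v1d passed under all 14 other settings, and Glb1, Gusb, Tpp1, Grn, Lamp2, Atp6v0d1 and Atp6v1a under all but the test against a 1.2-fold change. Atp6v1b2 passed under 7 and Atp6v1h under 5. Against a 1.2-fold change 876 genes passed, with 2 members higher and 3 lower. With library totals alone 3 members were higher and 11 lower. Leaving out 1 library at a time gave 976 to 1492 genes, 3 to 5 members higher and 9 to 11 lower. The number of genes was lowest without Ly6Chi-derived replicate 2, and was 1074 without TpMo-derived replicate 3, 1058 and 1062 without Ly6Chi-derived replicates 1 and 3. The cause was not tested.

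Signs turned 18 times, only in members with values near 0. Ids was at -0.042 with library totals alone and at -0.0012 with no filter, and between -0.059 and 0.11 with 1 library left out. Atp6v0a1 was at -0.039 with library totals alone and between -0.045 and 0.052 with 1 library left out. Man2b1 was at 0.0011 with the correction for GC content and length and between -0.056 and 0.022 with 1 library left out. In the same way Hexa lay between -0.088 and 0.015, Gaa between -0.10 and 0.021 and Cln3 between -0.0081 and 0.091. Sums of V0, V1, accessory and all V-ATPase members had ratios of 0.919, 0.928, 0.919 and 0.924 on the CPM scale against 0.851, 0.870, 0.876 and 0.867 per length. The latter had no TMM scaling of library totals. No paired analysis was possible because the labels give no replicate numbers. SEs were highest for Lamp1 (0.33), Arsb (0.31) and Sgsh (0.21).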
